A study of Mus musculus with 4 samples.

Results

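The enzymes of phase II metabolism were followed in the livers of mice fed an atherogenic diet, one meant to promote atherosclerosis. The set comprised every gene whose symbol in the platform annotation began with Gsta, Gstm, Gstp, Gstt, Gstk, Gsto, Gstz, Mgst, Ugt1, Ugt2, Ugt3 or Sult, read from probes that name a single gene. It held 43 genes on 45 probes, of 13954 genes named on the array, and all 43 had a value on every array, as did 13705 genes in total. By family, 21 encode glutathione transferases, 11 UDP-glycosyltransferases (the glucuronide family) and 11 sulfotransferases. Only Sult1d1 and Sult4a1 had 2 probes, and their values are the mean of both.

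Phase II enzymes attach a water-soluble group to drugs, hormones, bilirubin, bile acids and reactive products of lipid oxidation, so that these can leave the liver in bile or blood. Glutathione transferases join glutathione to electrophiles, UDP-glucuronosyltransferases transfer glucuronic acid from UDP-glucuronic acid, and sulfotransferases transfer sulfate from its activated form, PAPS. The liver is the main site of all these reactions, and their genes are known to respond to xenobiotic sensors such as AHR, CAR and PXR, to the oxidant sensor NRF2, and to growth hormone, which sets sex differences in rodent liver.

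The mice were male C57Bl/6J, an inbred strain. They had eaten an atherogenic diet with high fat for 24 weeks or for 6 weeks, or the atherogenic diet without added fat (here the plain diet) for 24 weeks or for 6 weeks. Each of these 4 conditions was measured on a single two-colour oligonucleotide array that paired Cy5-labelled RNA of the diet with Cy3-labelled RNA of mice on standard chow, without a dye swap. A probe's preference for a dye and an effect of diet therefore cannot be told apart. All RNA was amplified. The labels give chow of matching duration, except for the plain 6-week array, where the duration on chow is not given. The sources used here do not give diet composition, age, pooling of animals or sharing of chow RNA between arrays. Whole liver was sampled, so fewer cells of a type and less RNA per cell cannot be told apart.

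Values are log2 ratios of diet over chow, so that 1 means a doubling. They rest on reading the deposited ratios as base 10 logarithms, which was inferred from their spread. Array medians lay between -0.06 and 0.02. Ratios spread less on the high-fat arrays of 24 and 6 weeks (SD over probes 0.39 and 0.37) than on the plain arrays (0.46 and 0.53). Ratios hold no expression level, so levels of different genes were not compared, and the labelled tissue could not be checked by the abundance of its markers. On 3 arrays many probes shared 1 value, as described with Mgst1 below. Errors are limma standard errors over the 4 arrays, and a gene passed the test at an adjusted p under 0.05 over all 13705 genes. With 1 array per condition, no p-value measures the spread between animals. Against chow it rests on the spread between the 4 conditions. Between diets and between durations it rests on what the terms for high fat and duration leave over. That is 1 residual degree of freedom, which holds any interaction of diet and duration and is moderated over all genes.

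The promoters of Gsta1 and Gsta2 are shown because these genes had the largest mean rises, and those of Ugt3a1 and Ugt2a3 because these were the falls with the smallest errors in the glucuronide family. Each runs 5′ to 3′ from 250 bases before to 50 bases after the RefSeq start site (GRCm38.p6). Gsta1 lies at chr9:78230419-78230718 on the plus strand and Gsta2 at chr9:78347096-78347395 on the minus strand, where capitals mark GCGTG, the core bound by AHR. Ugt3a1 lies at chr15:9279579-9279878 on the plus strand and Ugt2a3 at chr5:87337146-87337445 on the minus strand, where capitals mark GTTAAT or its reverse complement ATTAAC, part of the site of the hepatocyte factor HNF1.
Gsta1: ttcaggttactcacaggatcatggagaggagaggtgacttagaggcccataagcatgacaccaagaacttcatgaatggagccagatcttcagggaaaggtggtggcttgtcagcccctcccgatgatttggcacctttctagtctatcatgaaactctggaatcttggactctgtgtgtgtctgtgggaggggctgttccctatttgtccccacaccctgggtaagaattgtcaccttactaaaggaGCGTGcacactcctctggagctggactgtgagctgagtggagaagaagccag
Gsta2: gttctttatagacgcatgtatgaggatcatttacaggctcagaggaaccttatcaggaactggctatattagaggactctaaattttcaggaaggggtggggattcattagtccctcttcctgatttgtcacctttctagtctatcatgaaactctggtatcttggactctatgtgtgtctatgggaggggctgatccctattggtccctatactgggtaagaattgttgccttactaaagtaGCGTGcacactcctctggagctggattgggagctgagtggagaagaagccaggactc
Ugt3a1: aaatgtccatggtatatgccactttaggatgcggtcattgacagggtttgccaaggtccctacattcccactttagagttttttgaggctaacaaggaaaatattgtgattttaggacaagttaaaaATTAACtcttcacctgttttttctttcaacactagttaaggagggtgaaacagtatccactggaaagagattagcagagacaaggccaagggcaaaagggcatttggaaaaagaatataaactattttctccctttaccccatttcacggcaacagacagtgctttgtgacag
Ugt2a3: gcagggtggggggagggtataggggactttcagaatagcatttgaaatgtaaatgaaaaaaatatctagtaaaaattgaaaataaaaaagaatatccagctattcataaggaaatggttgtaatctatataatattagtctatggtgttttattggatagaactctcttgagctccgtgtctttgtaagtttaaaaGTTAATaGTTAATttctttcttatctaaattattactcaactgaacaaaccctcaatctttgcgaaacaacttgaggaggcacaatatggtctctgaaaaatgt

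The Gsta1 and Gsta2 promoters matched at 236 of 302 aligned positions (78.1%), with 29 bases as the longest identical run, and GCGTG began at -2 in Gsta1 and at -7 in Gsta2 relative to the start site. The coding sequences of these genes are also close copies, so each probe may read RNA of both, and the genes are not independent of each other. RefSeq promoters were matched for 37 of the 43 genes. On either strand GCGTG occurred in promoters of 7 of 19 glutathione genes, 0 of 9 glucuronide genes and 3 of 9 sulfate genes, beside 35.2% of all genes with a promoter in the table. GTTAAT occurred in 5 of 9 glucuronide genes, 1 of 19 glutathione genes and 2 of 9 sulfate genes, beside 8.24% of all genes. The antioxidant response core TGACNNNGC occurred in 4 of 19 glutathione genes (Gsta3, Gstm5, Gstm7 and Mgst1) and in no gene of the other families, beside 14.0% of all genes. The 3 motifs differ in letters and were searched separately, and a match is a description of the window, not a binding site. Sequence outside this window was not searched, so a gene without a match may hold the motif elsewhere.

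Across both diets and durations, 3 phase II genes rose against chow and 6 fell. The rises were all glutathione transferases (Gsta1, Gsta2 and Mgst3), while 5 of the 6 falls were UDP-glycosyltransferases (Ugt1a2, Ugt3a1, Ugt3a2, Ugt2b1 and Ugt2a3) and the other was Gstp1. The called share was 20.9% of the 43 genes, against 12.0% of all genes; higher calls made up 6.98% of the 43 and 6.25% of all genes, and lower calls 14.0% of the 43 and 5.72% of all genes. No sulfotransferase passed, although 4 of 11 had an unadjusted p under 0.05, beside 30.7% of all genes. With duration as a random block Sult1a1, Sult1c1, Sult1c2, Sult1d1 and Sult5a1 passed, and with terms for diet kind and duration Sult2a2 did too. Calls over all 13705 genes rose as well, from 1640 to 4501 with the block and to 5219 with the terms. The correlation within duration in the block fit was negative (-0.47).

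**Figure D1:**
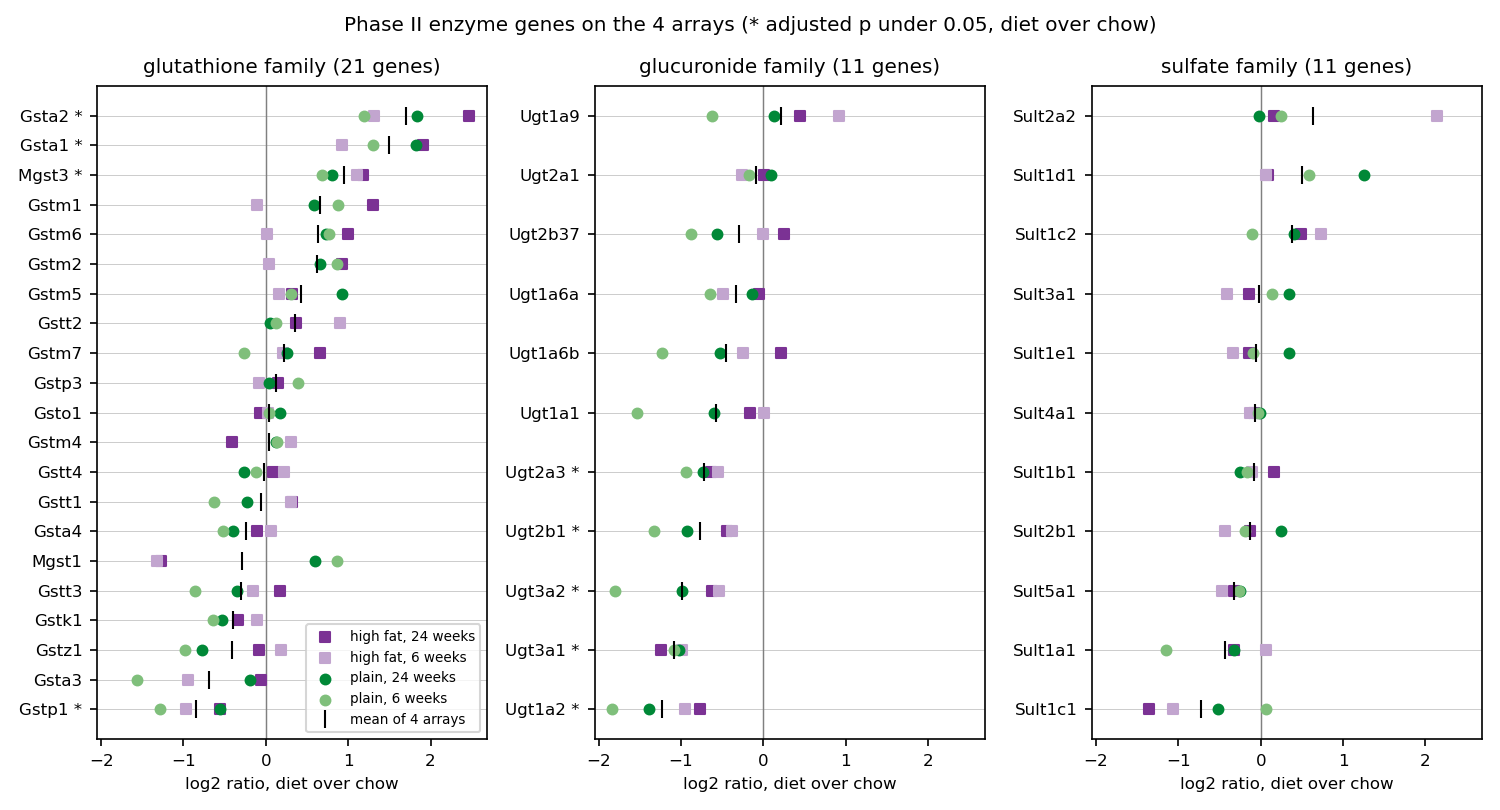
Log2 ratio of diet over chow of the phase II genes on each of the 4 arrays, grouped by family, each point being 1 array. Gsta1, Gsta2 and Mgst3 lie above 0 on every array, and the called UDP-glycosyltransferases lie below 0 on every array. Mgst1, Sult1c1 and Sult1d1 separate the high-fat from the plain arrays, but Mgst1 lies at shared values on both 24-week arrays and its difference cannot be read.

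Alpha-class glutathione transferases conjugate electrophiles such as aldehydes from oxidised lipids and reduce organic peroxides. Gsta2 stood at 2.47 (24 weeks) and 1.31 (6 weeks) with high fat, and at 1.83 (24 weeks) and 1.19 (6 weeks) with the plain diet. It rose by 1.70 ± 0.21, or 3.25-fold (adjusted p = 0.00755). Every array was above 0 and the diets overlapped, with both 24-week arrays above both 6-week arrays. Its difference between high fat and the plain diet was 0.38 ± 0.17 (adjusted p = 0.159), and with arrays scaled to a common spread it was 1.14 and passed.

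Gsta1 stood at 1.91 (24 weeks) and 0.93 (6 weeks) with high fat, and at 1.83 (24 weeks) and 1.30 (6 weeks) with the plain diet. The gene rose by 1.49 ± 0.17, or 2.81-fold (adjusted p = 0.00612). Here too the 24-week arrays were the higher ones with each diet, and the diets overlapped. The other alpha-class genes did not pass. Gsta3 had values of -0.06 (24 weeks) and -0.95 (6 weeks) with high fat, and of -0.19 (24 weeks) and -1.56 (6 weeks) with the plain diet, below 0 on each array and lower on the 6-week arrays (mean -0.69 ± 0.25, adjusted p = 0.119). Gsta4, which favours the lipid aldehyde 4-hydroxynonenal, averaged -0.24 ± 0.12 (adjusted p = 0.217).

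Mgst3, a membrane-bound transferase and peroxidase, stood at 1.18 (24 weeks) and 1.11 (6 weeks) with high fat, and at 0.80 (24 weeks) and 0.69 (6 weeks) with the plain diet. It rose by 0.95 ± 0.11, or 1.93-fold (adjusted p = 0.00612). Both high-fat values were above both plain values, but the difference between diets did not pass (0.40 ± 0.14, adjusted p = 0.0939) unless arrays were scaled to a common spread.

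Gstp1, the pi-class enzyme that is more abundant in male than in female mouse liver, stood at -0.56 (24 weeks) and -0.96 (6 weeks) with high fat, and at -0.55 (24 weeks) and -1.29 (6 weeks) with the plain diet. It fell by 0.84 ± 0.14 on the log2 scale, to 0.558 of chow (adjusted p = 0.0169). All 4 arrays were below 0, with the 6-week arrays lower. Its neighbour Gstp3 averaged 0.12 ± 0.10 and did not pass.

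The mu class, cytosolic transferases encoded in a gene cluster, had 6 measured members, all with means above 0 (median 0.52) and none past the test. Gstm1 stood at 1.30 (24 weeks) and -0.11 (6 weeks) with high fat, and at 0.59 (24 weeks) and 0.87 (6 weeks) with the plain diet (mean 0.66 ± 0.21, adjusted p = 0.0932). The high-fat 6-week array was the low one. The same array was also the lowest for Gstm2 at 0.03 and for Gstm6 at 0.01, whose other values were all 0.65 or higher, with means of 0.62 ± 0.16 (adjusted p = 0.051) and 0.63 ± 0.16 (adjusted p = 0.0534). Mu-class genes are close copies of each other, so their probes may share signal. Without the high-fat 6-week array Gstm1, Gstm2 and Gstm6 passed. Gstm2 and Gstm6 also passed with the largest probe of each gene, and Gstm2 with probes at shared values left out. With duration as a random block Gstm1, Gstm2, Gstm5 and Gstm6 passed, and with terms for diet kind and duration these and Gstm7 did. Calls over all genes were 4501 with the block and 5219 with the terms, in place of 1640.

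Of the remaining glutathione genes, Gstk1, a transferase of mitochondria and peroxisomes, averaged -0.40 ± 0.11 (adjusted p = 0.0607), and Gstt2 averaged 0.36 ± 0.15 (adjusted p = 0.161). Gsto1, an omega-class enzyme with thioltransferase activity, averaged 0.04 ± 0.08. Neither these nor Gstt4 (-0.02) and Gstm4 (0.04) passed.

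In the glucuronide family Ugt1a2 had the lowest mean. It stood at -0.77 (24 weeks) and -0.95 (6 weeks) with high fat, and at -1.38 (24 weeks) and -1.83 (6 weeks) with the plain diet. It fell by 1.23 ± 0.18, to 0.425 of chow (adjusted p = 0.0112). All arrays were below 0, and both plain values were below both high-fat values. Ugt1a genes differ in their first exon and share the rest of the transcript, so a probe outside the first exon would read several of them, and the probe positions were not used here.

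The Ugt3 genes encode enzymes that, in humans, use sugars other than glucuronic acid. Ugt3a1 stood at -1.25 (24 weeks) and -0.98 (6 weeks) with high fat, and at -1.02 (24 weeks) and -1.08 (6 weeks) with the plain diet, a fall of similar size on each array. It fell by 1.08 ± 0.08, to 0.472 of chow (adjusted p = 0.00205). For Ugt3a2 the values were -0.62 (24 weeks) and -0.54 (6 weeks) with high fat, and -0.99 (24 weeks) and -1.80 (6 weeks) with the plain diet. It fell by 0.99 ± 0.21, to 0.504 of chow (adjusted p = 0.0319), with the plain 6-week array far below the others.

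Ugt2 enzymes conjugate steroids, bile acids and drugs. Ugt2b1 stood at -0.44 (24 weeks) and -0.38 (6 weeks) with high fat, and at -0.93 (24 weeks) and -1.33 (6 weeks) with the plain diet. It fell by 0.77 ± 0.17, to 0.587 of chow (adjusted p = 0.035), and the plain arrays were the lower ones. Ugt2a3 stood at -0.63 (24 weeks) and -0.54 (6 weeks) with high fat, and at -0.74 (24 weeks) and -0.94 (6 weeks) with the plain diet. It fell by 0.71 ± 0.09, to 0.61 of chow (adjusted p = 0.00918), also with the lower values on the plain arrays. Ugt2a1, known for its olfactory expression, averaged -0.09 ± 0.09, and Ugt1a6a, a conjugator of phenols, -0.33 ± 0.12 (adjusted p = 0.124). Ugt1a9 was the glucuronide gene with a mean above 0, at 0.22 ± 0.23, and it did not pass.

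Leaving out the plain 24-week array changed the number of calls against chow more than the means. Without it Gsta1, Mgst3 and Ugt3a1 kept their calls and Gsta2, Gstp1, Ugt1a2, Ugt2a3, Ugt2b1 and Ugt3a2 lost them, while calls over all genes dropped to 286. The means of the lost genes stayed near those over 4 arrays, at 1.66 for Gsta2, -0.94 for Gstp1, -1.19 for Ugt1a2, -0.71 for Ugt2a3, -0.72 for Ugt2b1 and -0.99 for Ugt3a2. Ugt2b1 also lost its call without the plain 6-week array (mean -0.58), and Gstp1 without the high-fat 6-week array (mean -0.80). With diet kind as a random block, which allows for arrays of 1 diet being alike, Gstp1, Ugt2b1 and Ugt3a2 lost theirs.

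On single arrays, which have no test, the families stood apart mainly with the plain diet. The glucuronide median was -0.17 at 24 weeks and -0.38 at 6 weeks with high fat, and -0.60 at 24 weeks and -1.08 at 6 weeks with the plain diet. All 11 genes were below 0 on the plain 6-week array. At least 2-fold lower than chow were 1 of 11 at 24 weeks (all genes 1.55%) and 0 of 11 at 6 weeks (all genes 1.33%) with high fat, and 2 of 11 at 24 weeks (all genes 1.29%) and 6 of 11 at 6 weeks (all genes 1.64%) with the plain diet. Of the 21 glutathione genes, 4 were at least 2-fold higher than chow at 24 weeks (all genes 0.963%) and 2 at 6 weeks (all genes 0.671%) with high fat, and 2 each at 24 weeks (all genes 2.14%) and 6 weeks (all genes 4.31%) with the plain diet. The strongest departures from chow of the glucuronide genes thus lay on the plain 6-week array, which also had the widest spread over all probes (SD 0.53). The glutathione median stayed between 0.06 and 0.17 and the sulfate median between -0.13 and -0.01, close to the median of all genes (-0.01 to 0.05). Within the glutathione family the genes diverged most, with an SD of 0.66 between gene means, beside 0.44 for glucuronide genes, 0.40 for sulfate genes and 0.35 for all genes. Above 0 on all 4 arrays were 7 of 21 glutathione genes, 0 of 11 glucuronide genes and 1 of 11 sulfate genes, beside 20.7% of all genes. Below 0 on all 4 were 3 of 21, 6 of 11 and 2 of 11 in the same families, beside 20.0% of all genes.

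**Figure D2:**
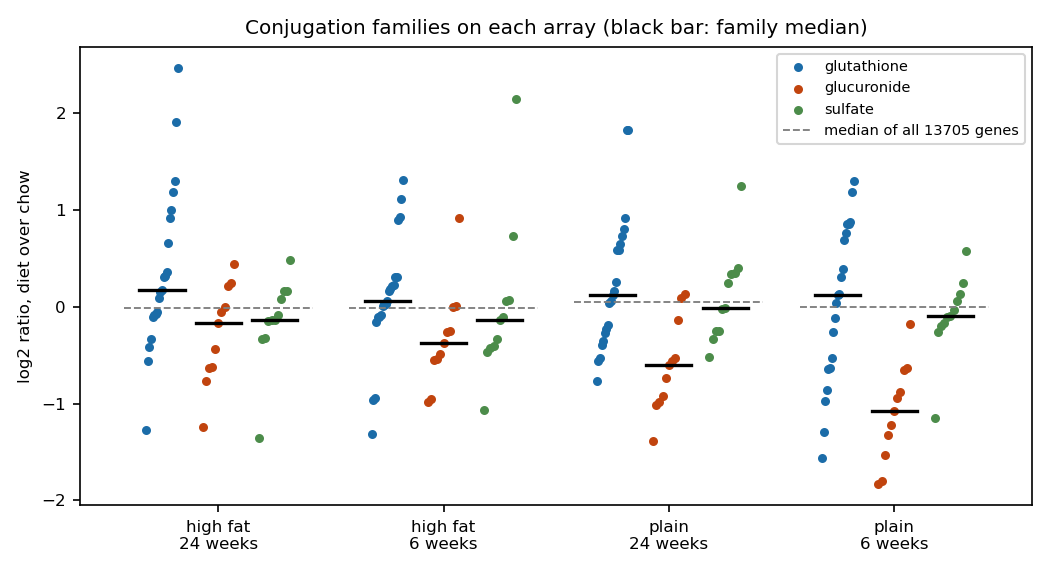
Log2 ratio of diet over chow by family on each array, with 1 point per gene and the family median and the median of all 13705 genes as lines. The glucuronide median is the lowest of the families on each array and lies furthest down on the plain 6-week array, at -1.08.

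The second comparison asks what high fat added to the atherogenic diet. Of the phase II genes 8 were higher with high fat than with the plain diet and 3 were lower, 25.6% of the 43 against 11.2% of all genes. The higher genes were 5 UDP-glycosyltransferases (Ugt1a1, Ugt1a2, Ugt1a6b, Ugt2b1 and Ugt2b37) and 3 glutathione transferases (Gstz1, Gstt1 and Gstt3), and the lower genes were Mgst1, Sult1c1 and Sult1d1. Higher calls were 18.6% of the 43 and 3.99% of all genes, and lower calls 6.98% of the 43 and 7.25% of all genes. An unadjusted p under 0.05 was found for 23 of the 43 and for 32.7% of all genes. With arrays centred on their median 6 of the 43 were higher and 4 lower. Leaving out probes at shared values removed Mgst1 and left 8 higher and 2 lower. With arrays scaled to a common spread 7 of the 11 calls were kept, 4 were lost (Sult1d1, Ugt1a1, Ugt1a2 and Ugt2b1) and 7 were gained. The gained calls were Gsta2, Gstm7, Gstt2, Mgst3 and Ugt1a9 as higher and Sult3a1 and Ugt3a1 as lower. These calls need the term for duration. With diet kind alone Mgst1 was the single call left among the 43, and its values lay at shared values on both 24-week arrays, as described below. In that fit 8 genes passed in all (19 of the 43 and 3812 of all genes had an unadjusted p under 0.05).

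**Figure D3:**
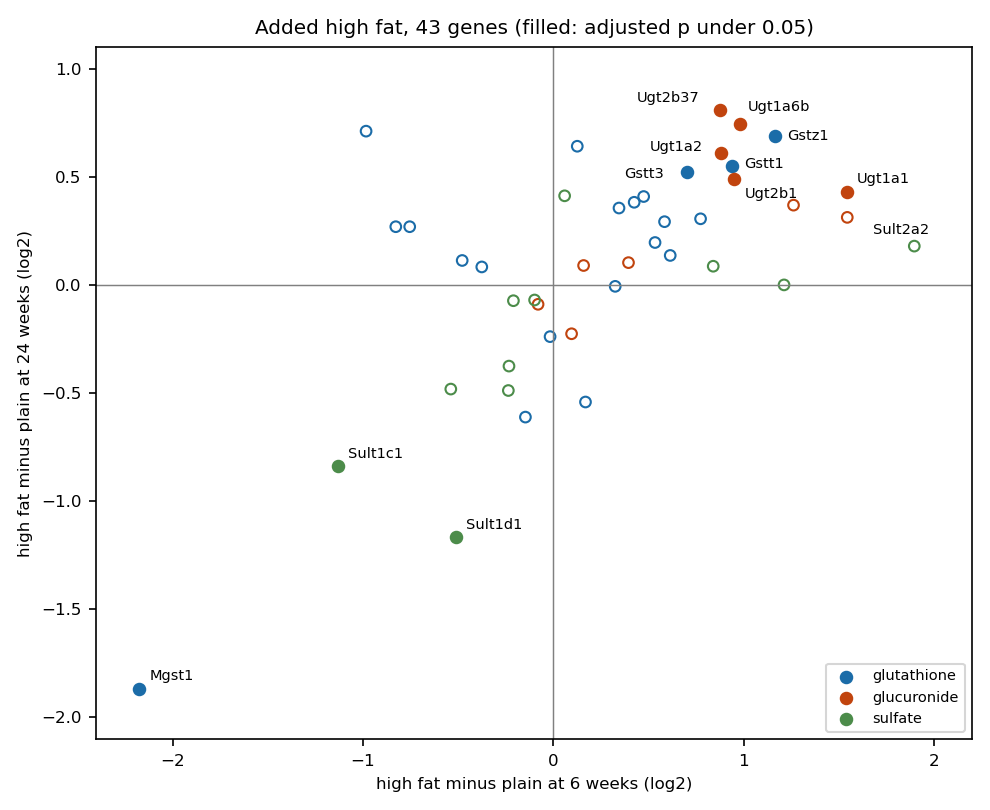
High-fat minus plain log2 ratio of each phase II gene at 6 weeks (horizontal) and at 24 weeks (vertical), coloured by family and filled where the adjusted p was under 0.05. The called UDP-glycosyltransferases lie in the upper right at both durations, and Mgst1, Sult1c1 and Sult1d1 in the lower left. Mgst1 lay at shared values on both 24-week arrays, so its position cannot be read as a difference between diets.

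Ugt1a1, the enzyme that conjugates bilirubin, stood at -0.17 (24 weeks) and 0.01 (6 weeks) with high fat, and at -0.60 (24 weeks) and -1.53 (6 weeks) with the plain diet. It was higher with high fat by 0.99 ± 0.25 (adjusted p = 0.0458). The diets did not overlap, and the plain 6-week array lay furthest from the rest. Its call was lost with arrays centred on their median (0.93), with arrays scaled to a common spread (0.75) and with robust variance estimates.

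Ugt1a6b, a close copy of Ugt1a6a, stood at 0.21 (24 weeks) and -0.25 (6 weeks) with high fat, and at -0.53 (24 weeks) and -1.23 (6 weeks) with the plain diet. It was higher by 0.86 ± 0.14 (adjusted p = 0.021), without overlap. Ugt1a6a itself differed by 0.12 ± 0.14 (adjusted p = 0.564). Ugt2b37 stood at 0.25 (24 weeks) and 0.00 (6 weeks) with high fat, and at -0.56 (24 weeks) and -0.88 (6 weeks) with the plain diet. This gene was higher by 0.84 ± 0.14 (adjusted p = 0.0209), again without overlap. For Ugt1a2 and Ugt2b1, whose values stand above, the differences were 0.75 ± 0.15 (adjusted p = 0.0281) and 0.72 ± 0.16 (adjusted p = 0.0369). With arrays scaled to a common spread these shrank to 0.22 for Ugt1a2 and 0.40 for Ugt2b1 and no longer passed. Ugt3a1 (-0.06 ± 0.15, adjusted p = 0.791), Ugt3a2 (0.82 ± 0.21, adjusted p = 0.0519) and Ugt1a9 (0.93 ± 0.27, adjusted p = 0.0618) did not pass. With the common spread Ugt1a9 passed as higher with high fat, and Ugt3a1 passed as lower.

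Gstz1, the maleylacetoacetate isomerase of tyrosine breakdown, stood at -0.08 (24 weeks) and 0.19 (6 weeks) with high fat, and at -0.77 (24 weeks) and -0.98 (6 weeks) with the plain diet. It was higher by 0.93 ± 0.16 (adjusted p = 0.0229), with both plain arrays below both high-fat arrays. The theta-class enzyme Gstt1, which conjugates small halogenated compounds, stood at 0.32 (24 weeks) and 0.31 (6 weeks) with high fat, and at -0.23 (24 weeks) and -0.63 (6 weeks) with the plain diet. It was higher by 0.74 ± 0.16 (adjusted p = 0.0316), with values above 0 on the high-fat arrays and below 0 on the plain arrays. Gstt3 stood at 0.17 (24 weeks) and -0.16 (6 weeks) with high fat, and at -0.35 (24 weeks) and -0.86 (6 weeks) with the plain diet. It was higher by 0.61 ± 0.14 (adjusted p = 0.0396), but not with arrays centred on their median (0.55). The other theta genes differed in the same direction without passing, Gstt2 by 0.54 ± 0.16 (adjusted p = 0.07) and Gstt4 by 0.35 ± 0.14 (adjusted p = 0.129).

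Mgst1, a microsomal transferase abundant in liver, stood at -1.28 (24 weeks) and -1.32 (6 weeks) with high fat, and at 0.59 (24 weeks) and 0.86 (6 weeks) with the plain diet. Its difference between high fat and the plain diet was -2.02 ± 0.15 (adjusted p = 0.00374), with diets on opposite sides of 0. Neither the size nor the direction of this difference can be read. On the high-fat 24-week array 14 probes held the value -1.28, where neighbouring values would give 2.15. The same count of probes held -1.35 on the high-fat 6-week array (1.58 from neighbours), and 63 held 0.59 on the plain 24-week array (28.4 from neighbours). Mgst1 lay within 0.003 (log10) of the shared value on both 24-week arrays, as did Gstm1 on the plain 24-week array, and so did probes of the plasma proteins Alb, Ttr and Serpina1a. No shared value met the criterion on the plain 6-week array. There Mgst1 and Gstm2 read 0.86, as did a Serpina1a probe, and Gstm1 and a Gpx1 probe read 0.87. The Serpina1a probe was close to Mgst1 on the other arrays too, at -1.25 (24 weeks) and -1.35 (6 weeks) with high fat and 0.59 on the plain 24-week array. Not every plasma protein probe was alike: an Alb probe read -1.28 on the plain 6-week array.

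**Figure D4:**
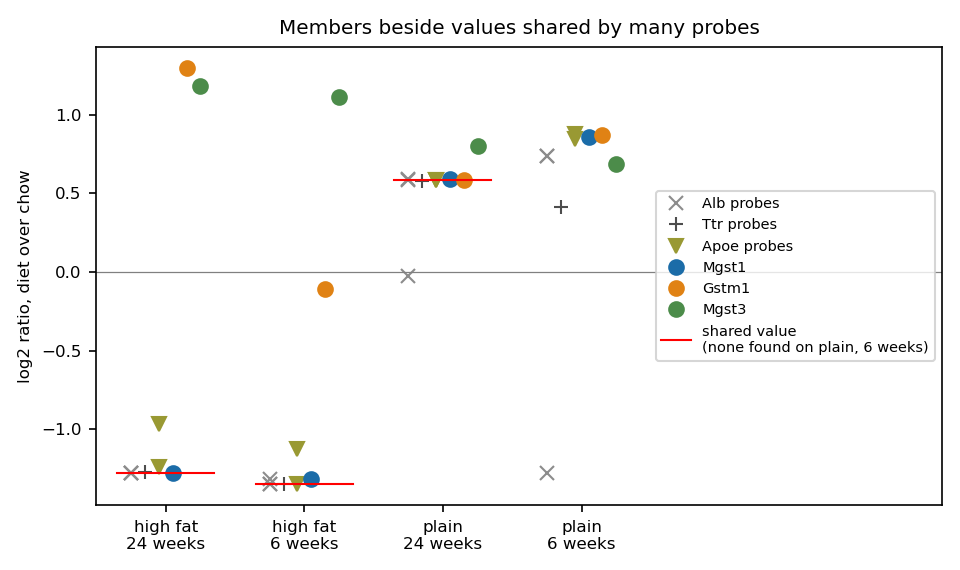
Log2 ratio of diet over chow on each array for Mgst1, Gstm1 and Mgst3 and for probes of the plasma protein genes Alb, Ttr and Apoe, with red lines at the value many probes share. Mgst1 sits on the line on both 24-week arrays and close to it on the high-fat 6-week array, while Mgst3 is away from the line on all of them.

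The sulfotransferases that passed were lower with high fat. Sult1c1 stood at -1.36 (24 weeks) and -1.07 (6 weeks) with high fat, and at -0.52 (24 weeks) and 0.06 (6 weeks) with the plain diet. Its difference was -0.98 ± 0.15 (adjusted p = 0.0187), without overlap. Sult1d1, which in mice sulfates catecholamines, stood at 0.08 (24 weeks) and 0.07 (6 weeks) with high fat, and at 1.25 (24 weeks) and 0.58 (6 weeks) with the plain diet. Its difference was -0.84 ± 0.18 (adjusted p = 0.0348), and with arrays scaled to a common spread it was -0.68 and did not pass. Its 2 probes read 0.00 and 0.17 on the high-fat 24-week array and 0.98 and 1.52 on the plain 24-week array, so both were lower with high fat.

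Sult2a2, a hydroxysteroid sulfotransferase of a class that is female-predominant in mouse liver, stood at 0.16 (24 weeks) and 2.15 (6 weeks) with high fat, and at -0.02 (24 weeks) and 0.25 (6 weeks) with the plain diet. Neither its mean (0.63 ± 0.35, adjusted p = 0.268) nor its difference between diets (1.04 ± 0.34, adjusted p = 0.0876) passed. The value rests on the high-fat 6-week array, without which the mean was 0.13. Sult3a1, of another female-predominant class, stood at -0.14 (24 weeks) and -0.41 (6 weeks) with high fat, and at 0.35 (24 weeks) and 0.13 (6 weeks) with the plain diet (difference -0.51 ± 0.14, adjusted p = 0.0552). Sult1a1, the main phenol sulfotransferase, averaged -0.44 ± 0.19 against chow (adjusted p = 0.173), with its lowest value, -1.15, on the plain 6-week array. The estrogen sulfotransferase Sult1e1 averaged -0.06 ± 0.12 and the cholesterol sulfotransferase Sult2b1 -0.13 ± 0.12. The brain gene Sult4a1 averaged -0.07 ± 0.08, from probes that lay on opposite sides of 0 on both plain arrays.

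By family, 9 of 11 glucuronide genes were higher with high fat at both durations, as were 11 of 21 glutathione genes and 3 of 11 sulfate genes, beside 31.1% of all genes. Lower at both durations were 1 of 11 glucuronide genes, 3 of 21 glutathione genes and 7 of 11 sulfate genes, beside 43.3% of all genes. The median difference was 0.75 for glucuronide, 0.35 for glutathione and -0.14 for sulfate genes, and -0.06 for all genes. These counts and medians were not scaled to a common spread, although ratios spread less on the high-fat arrays. With that scaling Ugt1a6b and Ugt2b37 kept their calls and Ugt1a1, Ugt1a2 and Ugt2b1 lost theirs. Ugt1a9 then passed as higher and Ugt3a1 as lower.

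The third comparison asks what 24 weeks added to 6 weeks. No phase II gene and no gene of the 13705 passed (0.0%), while 12 of the 43 and 1353 of all genes (9.87%) had an unadjusted p under 0.05 in limma. Gsta3 had the largest difference of the 43 toward higher values at 24 weeks, at 1.13 ± 0.16 (adjusted p = 0.147). Gsta2 differed by 0.90 ± 0.17 (adjusted p = 0.228) and Gsta1 by 0.75 ± 0.16 (adjusted p = 0.28), so these alpha-class genes were higher at 24 weeks with both diets without passing. Ugt1a6b (0.58 ± 0.14, adjusted p = 0.344) and Gstp1 (0.57 ± 0.15, adjusted p = 0.354) came next. On both diets 20 of the 43 genes were higher at 24 weeks, beside 30.5% of all genes, and 5 were lower, beside 27.3%.

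Of the 43 genes 24 passed in no comparison and were neither markers nor among the largest means of a family. Their values ran from -1.56 to 1.30, and 4 were above 0 on every array, 5 below 0 on every array and 15 mixed.

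The lists of genes that regulate or supply these reactions can be read beside all genes, of which 6.25% rose and 5.72% fell against chow, and 3.99% were higher and 7.25% lower with high fat. Of 20 xenobiotic sensors and hepatic regulators, Nfe2l2, which encodes NRF2, rose by 0.71 ± 0.18 (adjusted p = 0.0491) and the small MAF partner Maff fell by 0.52 ± 0.10, while between diets Cux2 was lower with high fat. Of 19 NRF2-regulated genes, the carbonyl reductase Cbr1 rose by 1.02 ± 0.09 (adjusted p = 0.00307) and none fell. The NRF2 targets Nqo1 (0.33 ± 0.09, adjusted p = 0.0608) and Gclc (0.23 ± 0.09, adjusted p = 0.157), singled out after their values were seen, did not pass. Nor did Me1 (-0.48 ± 0.13, adjusted p = 0.0656) and Akr1b8 (-0.35 ± 0.11, adjusted p = 0.0968), which went the other way. Means were above 0 for 15 of the 19 and below 0 for 4, beside 6955 above and 6749 below of all genes. Between diets, the microsomal epoxide hydrolase Ephx1 of that list was higher with high fat by 0.95 ± 0.14 (adjusted p = 0.0187), and Slc7a11 and Ftl1 were lower.

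In glutathione synthesis and recycling 1 of 20 genes rose (Ggct, 0.61) and 3 fell. The falls were Cbs (-1.10 ± 0.17, adjusted p = 0.0125) and Cth (-0.84 ± 0.15, adjusted p = 0.0189), which turn homocysteine into cysteine, and the dipeptidase Dpep1 (-0.48). In the supply of UDP-glucuronic acid and the hydrolysis of glucuronides, Pgm2 (0.57) and the glucuronidase Gusb (0.45) rose and G6pc (-0.59) fell, of 9 genes, and between diets Ugp2, which makes UDP-glucose, was higher with high fat by 0.68 ± 0.17 (adjusted p = 0.0433) and Uxs1 differed by -0.64 ± 0.14 (adjusted p = 0.0338). In a list of sulfate activation, sulfate supply and related sulfur metabolism, and sulfatases, none of 17 rose and 4 fell. The falls there were Csad (-0.67 ± 0.08, adjusted p = 0.00742), Bpnt1, which removes the by-product of PAPS (-0.49), Tst (-0.45) and the sulfate carrier Slc26a1 (-0.42). The sulfite oxidase Suox of that list was higher with high fat by 0.73 ± 0.15 (adjusted p = 0.0314).

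Among 20 other conjugating enzymes and further enzymes listed with them, the histamine methyltransferase Hnmt rose (0.74 ± 0.12, adjusted p = 0.0169). The epoxide hydrolase Ephx2 (-0.70) and the nicotinamide methyltransferase Nnmt (-0.60) fell. Between diets 3 of these 20 were higher with high fat (Ephx1, Inmt and Glyat) and Glul was lower. Of 16 conjugate transporters Slco1a4 rose and Slco1a1, Slc10a1 and Slc22a7 fell, and the bile acid importer Slc10a1 was higher with high fat by 1.02 ± 0.17 (adjusted p = 0.021). Of 12 male-predominant liver genes 8 fell and none rose, and of 14 female-predominant genes 1 rose and 1 fell, beside 5.72% lower and 6.25% higher of all genes. Between diets 1 male-predominant gene was higher with high fat and none was lower, and 2 female-predominant genes were higher and 2 lower.

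Markers of liver cell types moved with the same comparisons, and their part in the results above was not tested. Against chow, 11 of 17 macrophage, 8 of 15 stellate and 7 of 16 bile duct markers rose and 1, 1 and 0 of them fell, while 1 of 19 hepatocyte markers rose and 1 fell, beside 6.25% higher and 5.72% lower of all genes. The bile duct markers that rose were Krt8, Krt18, Krt23, Tspan8, Bicc1, Anxa5 and Mmp7. Those that did not pass were Krt7, Krt19, Epcam, Sox9, Cftr, Muc1, Cldn7, Prom1 and Cd24a. Of the other lists, 3 of 11 neutrophil markers rose and 1 fell, 3 of 14 lymphocyte and 1 of 11 endothelial markers rose, and 2 of 9 periportal markers rose, with none falling in these last 3. Between diets 11 of 19 hepatocyte markers were lower with high fat and 1 was higher. Their median was -0.51 at 24 weeks and -0.85 at 6 weeks with high fat, and 0.39 at 24 weeks and 0.05 at 6 weeks with the plain diet, and several of their probes, Alb and Ttr among them, lay at the shared values. Of 14 pericentral markers 3 fell and none rose against chow.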

How the data were processed

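Liver RNA of 4 diet conditions was hybridised against chow RNA on AceGene Mouse Oligo Chip 30K arrays, 1 array each. Per the series' design text, slides were read on an Agilent G2505B scanner with GenePix Pro 4.1 and normalised by LOWESS in GeneSpring 7.2. The sources used here do not give background correction or filters on spots. The deposited values are log10 ratios: the base was inferred from their spread, the direction (Cy5 diet over Cy3 chow) comes from the labels' dyes, and centring beyond LOWESS is unknown. Median deposited log10 values were 0.006 and -0.005 at 24 weeks and 0.006 and -0.019 at 6 weeks (high fat and plain). Values were converted to log2.

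Of 28845 probes, 17637 had 1 symbol in the platform annotation, 64 several, and 11144 were not listed. Symbols were updated through the RefSeq table of GRCm38.p6, where 252 probes found no match. Probes without a value on every array (975) were left out, and a gene is the mean of its probes. No spot intensities were used here, so signal over background is unknown.

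Tests used limma 3.58.1 in R 4.3.3 (lmFit and eBayes, two-sided, Benjamini-Hochberg over 13705 genes), and were tested on simulated data. For diet over chow the array mean was set against 0. An additive model with terms for high fat and duration leaves 1 residual degree of freedom, and the interaction could not be tested. A shared value was one held by more probes than neighbouring values predict (Poisson p under 1e-06). Array values are given for genes called in any comparison, the markers Gsta1, Gsta2, Mgst1 and Sult1d1, and the 2 genes of each family with the largest mean; others named were singled out after their values were seen. In the gene lists up to 4 called genes are named by size. The members, lists and motifs were chosen with earlier results of these data known.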

Additional observations from a re-analysis of the deposited data

Results flagged for a closer look

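Each of 11 phase II genes differed between high fat and the plain diet by the additive limma model (adjusted p under 0.05). High-fat minus plain differences were 0.99 for Ugt1a1, 0.75 for Ugt1a2, 0.86 for Ugt1a6b, 0.72 for Ugt2b1 and 0.84 for Ugt2b37. They were 0.93 for Gstz1, 0.74 for Gstt1 and 0.61 for Gstt3. Below 0 were Mgst1 at -2.02, whose size and direction cannot be read, Sult1c1 at -0.98 and Sult1d1 at -0.84. With 1 array per condition no array could be tested for standing apart from its replicates.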

How the results depend on the processing

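The 9 calls against chow became 3 to 11 when 1 array was left out, 31 with diet kind and duration as terms and 22 with duration as a random block. Over all genes the 1640 calls became 5219 with both terms, 4501 with duration as a block, 405 with diet kind as a block, 286 without the plain 24-week, 784 without the high-fat 6-week and 759 without the high-fat 24-week array, and 2880 probes in a fit by probe. The 11 calls between diets became 1 with diet kind alone (8 in place of 1541 over all genes, and 4411 probes in a fit by probe). With arrays centred on their median they were 6 higher and 4 lower, and with a common spread 10 higher and 4 lower (7 kept, 4 lost, 7 gained), in place of 8 and 3. The cause of these moves was not tested. The mean of Gstt1 against chow was 0.028 with a common spread and ran from -0.18 to 0.13 with 1 array left out, that of Mgst1 from -0.67 to 0.0587, and the difference of Gsta1 between diets was 0.49 and that of Gsta2 1.14 (newly passing) with a common spread. The glutathione median was 0.22 (common spread) and 0.38 (as a mean) on the high-fat 24-week array, 0.25 (as a mean) on the plain 24-week array, and 0.19 (centred) and 0.0324 (as a mean) on the plain 6-week array. The sulfate median was -0.22 (largest probe) and 0.0057 (as a mean) on the high-fat 6-week array, 0.11 (as a mean) on the plain 24-week array and -0.0365 (centred) on the plain 6-week array. No paired analysis by replicate number was possible because the labels give none, and the comparison of diets is already matched on duration. The number of arrays limits every value.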
